A study of Mus musculus with 8 samples.

Results

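Transcripts of the vacuolar proton pump and of the lysosome were followed across 8 mouse livers. The members were 38 genes chosen by name, 20 for subunits and accessory proteins of the pump and 18 for lysosomal enzymes, membrane proteins and regulators. The list was drawn up around the high level of Atp6v0d2, a pump subunit, in the mutant livers of this same series, so the values of that gene are given as a description without a test. Each gene was read from 1 probe set, the brightest on average of those that name no other gene, and 37 of the 38 could be read in this way, out of 19934 genes measured. Atp6v0c, the proteolipid that forms most of the rotating ring, had no such probe set and has no value here.

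All livers were from male C57Bl/6 mice of 10 to 12 weeks on normal chow, under light for 12 h and darkness for 12 h a day, and were taken at zeitgeber time 10. In 4 samples, labelled NS-DADm, the corepressors NCOR and SMRT were both mutated in the deacetylase-activating domain (DAD), through which each binds HDAC3 and turns on its enzyme. Wild-type (WT) livers made up the other 4. RNA of each sample was hybridised to 1 Affymetrix Mouse Gene 1.0 ST array, and values are log2 intensities. The labels name no promoter or Cre that would limit the mutation to 1 cell type, and they leave unsaid whether the arrays stand for separate animals, so the p-values speak of the spread of these samples alone, part of which may be technical. The transcripts of the mutated genes were not analysed here, and the genotypes rest on the labels.

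The vacuolar ATPase pumps protons into lysosomes and other compartments. Its V1 sector, on the cytosolic side, splits ATP and turns a central stalk, and its V0 sector, in the membrane, carries the protons through a rotating ring. The acid interior lets cathepsins, glycosidases and acid lipase work. Subunit d joins the stalk to the ring and is made from 2 genes: Atp6v0d1 is used in most cells, while Atp6v0d2 is best known from osteoclasts, macrophages and kidney. TFEB and TFE3 are transcription factors that bind an E-box, CACGTG and its flanks, near many lysosomal and pump genes.

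Some promoters of the members hold that E-box, and a set of them is printed. The choice by name did not read promoters, but the E-box is known from many lysosomal and pump genes. Its share among the members is therefore a description, not an independent finding. Promoters of 29 of the 38 members were in the RefSeq table (GRCm38.p6, 250 bases before to 50 after a gene's start). The motif CACGTG, which reads the same on both strands, stood in the promoters of 10 of these 29 genes (34.5%), against 9.5% of 15611 genes that were both tested on the array and in the table. The longer palindrome TCACGTGA stood in 6 of 29 (20.7%) against 1.52%, and GTCACGTG, searched on both strands and overlapping the other motifs, in 6 of 29 against 3.47%. The other genes of the pathway, listed below by function, held these motifs too, CACGTG in 23 of 83 (27.7%), TCACGTGA in 8 (9.64%) and GTCACGTG in 16 (19.3%). A gene was counted once if any of its promoters held the motif, and a match is a match of letters, not a measured binding site. The sites below are read in the direction of the gene, with the longer motif in capitals.
Atp6v0b: gcggggGTCACGTGgggtcg
Atp6v0d1: ctgcggTCACGTGAgacgcg
Atp6v0e: cgccgaTCACGTGAgcctct
Atp6v1a: tttaaaTCACGTGAtaggct
Lamp1: gactggCACGTGACcacatc
Mcoln1: ccccgcTCACGTGAccgcgg
Ctsa: aaactgTCACGTGAtgcaga
Ctsd: cgcgtcTCACGTGAcccgtt
These lie at chr4:117887354-117887373 (minus strand) for Atp6v0b, chr8:105566055-105566074 (minus) for Atp6v0d1, chr17:26676392-26676411 (plus) for Atp6v0e and chr16:44139378-44139397 (minus) for Atp6v1a. The sites of the lysosomal genes lie at chr8:13159127-13159146 (plus) for Lamp1, chr8:3500467-3500486 (plus) for Mcoln1, chr2:164833754-164833773 (plus) for Ctsa and chr7:142387913-142387932 (minus) for Ctsd, all on GRCm38.p6. Atp6v0d2, Atp6v0a2, Atp6v1b2, Atp6v1c1, Atp6v1g1, Atp6v1h, Ctsb, Ctsh and Npc1 were not in the table.

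Array medians lay between 7.39 and 7.50, and any 2 arrays had a correlation across probe sets of 0.993 to 0.998. The 7 hepatocyte markers, among them albumin and transthyretin, had a mean of 13.46 to 13.49 on every array. All 7 were among the brightest genes, at percentiles 99.0 to 100 of mean level. How well the array resolves differences at that brightness was not measured. Markers of other liver cells varied more. The mean of 13 Kupffer cell and macrophage markers ran from 8.60 in NS-DADm replicate 1 to 9.57 in NS-DADm replicate 4, and from 8.70 to 9.33 in WT livers. The mean of 7 sinusoidal endothelial markers was 9.16 in NS-DADm replicate 1 and 9.40 to 9.75 in NS-DADm replicates 2 to 4, against 9.59 to 9.78 in WT. All 7 endothelial markers had values below 0 for NS-DADm minus WT, with a median of -0.26, and none of them passed the test, although Kdr did without NS-DADm replicate 4 (adjusted p = 0.0426). In whole liver, fewer cells of a type and less RNA per cell cannot be told apart.

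Atp6v0d2 (Entrez Gene 242341) stood far above its wild-type level in the mutant livers, while its sister gene Atp6v0d1 stayed close to its own. Atp6v0d2 measured 6.50, 7.05, 7.33 and 6.69 in WT replicates 1 to 4 and 8.49, 8.21, 8.44 and 8.44 in NS-DADm replicates 1 to 4. The 4 WT values lay below the lowest array median and the 4 NS-DADm values above the highest, so the groups did not overlap. The means were 6.89 ± 0.37 in WT and 8.39 ± 0.12 in NS-DADm (SD, n = 4 each), a difference of 1.50 on the log2 scale or 2.83-fold, and between 1.37 and 1.65 whichever array was left out. The WT livers also differed among themselves, with a range of 0.84 that was the widest WT range of the 19 measured pump genes, against 0.28 among the NS-DADm livers.

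Atp6v0d1 (Entrez Gene 11972), the ubiquitous form of subunit d, measured 10.49, 10.66, 10.52 and 10.57 in WT and 10.56, 10.63, 10.54 and 10.57 in NS-DADm replicates 1 to 4. Its groups overlapped fully, with a difference of 0.01 (95% confidence interval -0.11 to 0.14, adjusted p = 0.987, limma). Within each array the value of Atp6v0d2 minus that of Atp6v0d1 was -3.99, -3.61, -3.18 and -3.88 in WT and -2.07, -2.42, -2.11 and -2.13 in NS-DADm replicates 1 to 4. This difference between probe sets carries their unequal brightness and is not a ratio of transcripts. Only its shift between groups, 1.48 on average, can be read, and no array of one group reached into the other.

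**Figure D1:**
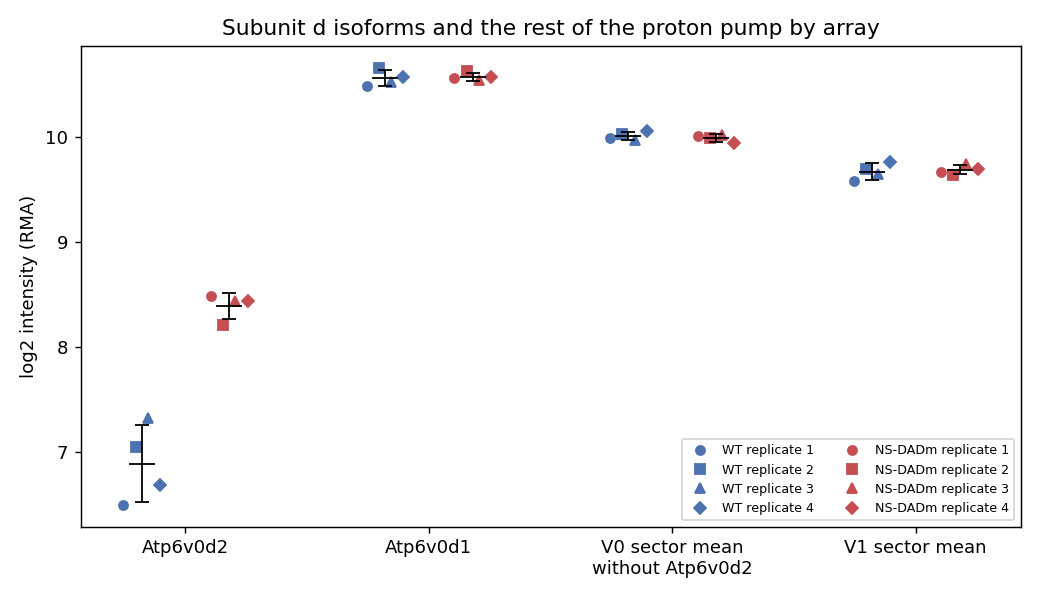
Log2 intensity of Atp6v0d2, of Atp6v0d1 and of the mean of the other measured V0 and of the V1 subunits in each of the 4 WT (blue) and 4 NS-DADm (red) arrays; marker shape gives the replicate, and black bars are mean ± SD. Atp6v0d2 lies at 6.50 to 7.33 in WT and 8.21 to 8.49 in NS-DADm, while the other 3 columns overlap between groups.

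The other genes of the pump stayed near their wild-type levels. Besides Atp6v0d2, 18 pump genes were measured, and each differed between the groups by less than 0.2 on the log2 scale, as did 92.7% of all genes. Their median difference was -0.02, with 8 above and 10 below 0, beside a median of -0.01 over all genes. None of the 36 members other than Atp6v0d2 passed an adjusted p of 0.05 in limma over all genes, where 0.271% of genes passed, and 5 of the 36 had an unadjusted p under 0.05, against 9.33% of all genes. The mean of the 18 pump genes was 9.80 to 9.96 in WT and 9.84 to 9.92 in NS-DADm livers, so every NS-DADm array fell inside the WT range.

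Within V0, the a subunits, which form the path of the protons beside the ring, differed little. Atp6v0a1 was at 0.05, Atp6v0a2 at -0.06 and Tcirg1, the form known from osteoclasts and immune cells, at 0.01. The second probe set of Atp6v0a2 gave -0.03. In 2 of the 7 measured V0 genes besides Atp6v0d2 (28.6%) all NS-DADm arrays lay below WT, beside 3.83% of all genes. Neither passed the test. Atp6v0e2, the second gene for the small membrane subunit e, measured 7.99, 7.85, 7.84 and 7.91 in WT and 7.82, 7.77, 7.69 and 7.63 in NS-DADm, a difference of -0.17 (SE 0.0614, adjusted p = 0.40). Atp6v0b, the proteolipid of the ring known as c″, measured 10.92, 10.89, 10.89 and 11.00 in WT and 10.80, 10.81, 10.87 and 10.87 in NS-DADm, a difference of -0.09 (SE 0.052, adjusted p = 0.666). The gap between the nearest arrays of the groups was small beside the spread within them in both genes. Atp6v0e, the main gene for subunit e, was at 0.06.

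All 9 V1 genes had overlapping groups. Atp6v1h, a regulatory subunit needed for the activity of the assembled pump, had the largest value of the sector, at 9.25, 9.51, 9.41 and 9.53 in WT and 9.60, 9.50, 9.79 and 9.48 in NS-DADm, a difference of 0.17 (95% confidence interval -0.02 to 0.36, adjusted p = 0.601). NS-DADm replicate 3 alone stood well above the WT arrays. Atp6v1b2, which with Atp6v1a makes up the ATP-splitting head, was at 0.15 (adjusted p = 0.666), and Atp6v1a at -0.07 (adjusted p = 0.809). The stalk genes Atp6v1c1, Atp6v1c2, Atp6v1d, Atp6v1e1, Atp6v1f and Atp6v1g1 lay between -0.06 and 0.05. The second probe sets of Atp6v1f and Atp6v1g1 gave -0.04 and 0.01. Of the accessory proteins, Atp6ap1 was at -0.04 and Atp6ap2, also known as the prorenin receptor, at -0.08. Atp6ap2 measured 9.34, 9.63, 9.61 and 9.82 in WT and 9.43, 9.37, 9.65 and 9.65 in NS-DADm, with full overlap.

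**Figure D2:**
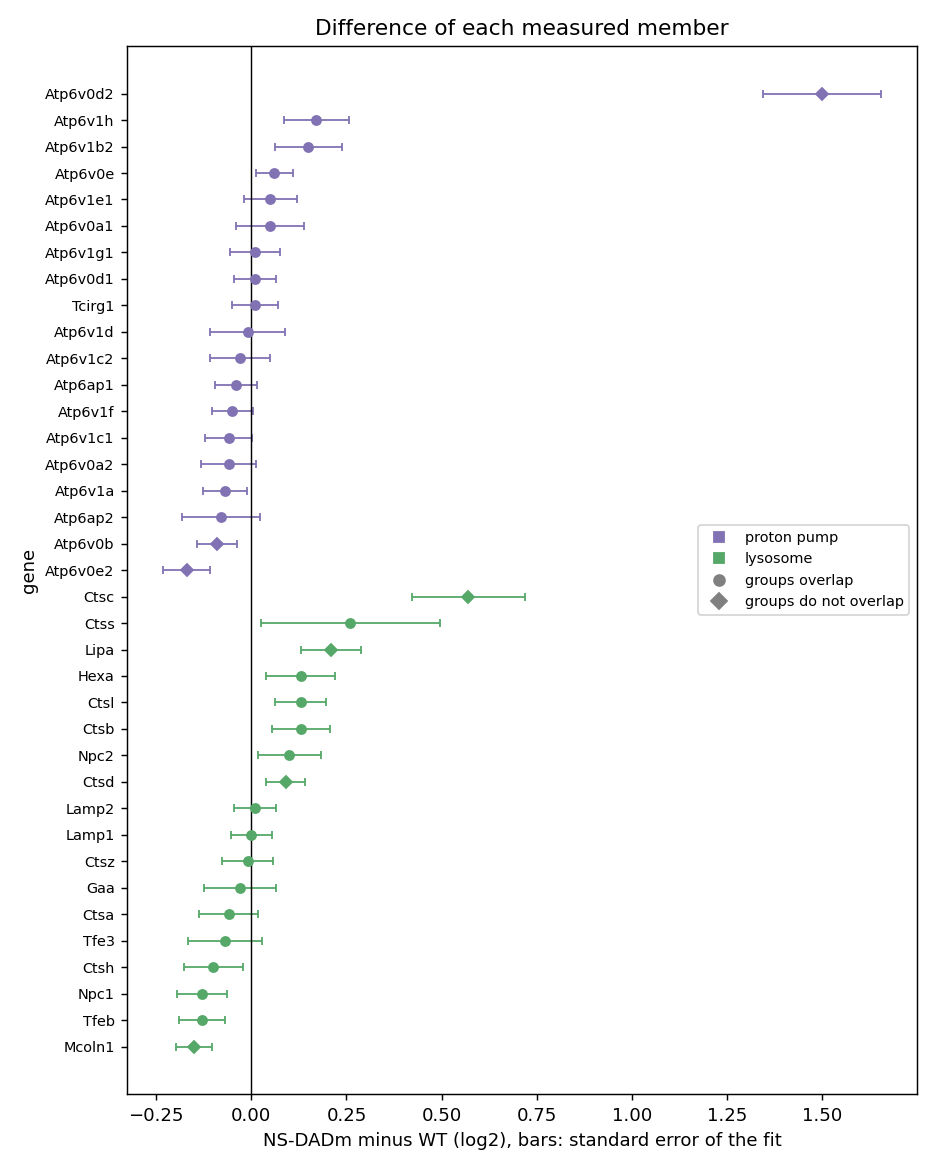
Difference between NS-DADm and WT means (log2, 4 arrays each) for the 37 measured genes, pump genes in purple and lysosome genes in green; bars are the standard error of the fit, and diamonds mark genes whose groups do not overlap. Atp6v0d2 sits at 1.50, the other pump genes within 0.17 of 0, and Ctsc at 0.57.

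Genes that mark osteoclasts and macrophages, cells in which Atp6v0d2 is best known, overlapped between the groups as lists. Of 6 osteoclast genes, 1 was above and 5 below 0, with a median of -0.06. The mean of the 6 was 7.64 to 7.76 in WT and 7.63 to 7.69 in NS-DADm. Only Nfatc1, at -0.12 (adjusted p = 0.506, limma), had groups without overlap, 16.7% of the 6 beside 5.63% of all genes. Calcr, Dcstamp and Ctsk were dim, at percentiles 21.2, 25.1 and 32.7 of mean level, where small differences are compressed. Acp5 and Ctsk also stand among the other lysosomal hydrolases. Of the 13 Kupffer cell and macrophage markers 10 were above and 3 below 0, with a median of 0.09, and none of either list passed the test. In NS-DADm replicates 1 to 4 the macrophage marker mean was 8.60, 8.91, 9.23 and 9.57, and Atp6v0d2 measured 8.49, 8.21, 8.44 and 8.44. In WT replicates 1 to 4 that mean was 9.19, 8.88, 8.70 and 9.33, and Atp6v0d2 measured 6.50, 7.05, 7.33 and 6.69. Neutrophil markers were above 0 in 7 of 7 (median 0.10), and their mean was 5.97 to 6.13 in WT and 6.11 to 6.30 in NS-DADm. All 7 were dim, at percentiles 4.93 to 35.7 of mean level. Of these, S100a9 alone, at 0.22 (adjusted p = 0.345, limma), had groups without overlap, 14.3% of the 7 beside 5.63% of all genes. The part of these cells in the level of Atp6v0d2 was not tested.

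The 18 lysosome genes, all measured, divided evenly around 0, with 9 above, 9 below and a median of 0.00. Their mean was 10.98 to 11.12 in WT and 11.01 to 11.24 in NS-DADm, and NS-DADm replicate 4 was the 1 array above the WT range. In 12 of the 18 that array was the highest of its group. The groups did not overlap in 4 of the 18, which with Atp6v0b and Atp6v0e2 made 6 of the 36 members other than Atp6v0d2 (16.7%), beside 5.63% of all genes. The NS-DADm arrays were above WT in 3 of the 36 and below in 3 of the 36, beside 1.80% and 3.83% of all genes. Because the members were listed with this comparison in view, nothing is read from these shares.

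The glycoproteins that line the lysosomal membrane were close to their WT levels. Lamp1 measured 12.43 to 12.59 in WT and 12.47 to 12.56 in NS-DADm, and Lamp2 12.83 to 12.94 and 12.81 to 12.96. Their differences were 0.00 and 0.01, with 95% confidence intervals of -0.12 to 0.11 and -0.11 to 0.13. Mcoln1, the calcium channel of the lysosome also called TRPML1, measured 10.88, 10.90, 10.83 and 10.87 in WT and 10.72, 10.75, 10.70 and 10.71 in NS-DADm. All mutant arrays lay below all WT arrays within a narrow spread, a difference of -0.15 (SE 0.0477, 95% confidence interval -0.25 to -0.04) that did not pass over all genes (adjusted p = 0.331).

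The regulators were both slightly below their WT means. Tfeb measured 8.54, 8.59, 8.58 and 8.50 in WT and 8.32, 8.39, 8.41 and 8.55 in NS-DADm, where 3 arrays lay below WT and replicate 4 within it. The difference was -0.13 (SE 0.0605, adjusted p = 0.531). Tfe3 was at -0.07 (adjusted p = 0.932), with NS-DADm arrays from 8.91 to 9.41 on both sides of the WT range of 9.14 to 9.31. The 10 members with CACGTG in a promoter had a median difference of -0.02, from -0.15 to 0.13, and the 18 measured members whose promoters lacked it one of 0.00, from -0.17 to 0.57.

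Among the 8 cathepsins, the proteases of the lysosome, Ctsc stood apart in size. Ctsc encodes dipeptidyl peptidase I, which trims proteins and activates the serine proteases of immune cell granules. It measured 10.41, 10.90, 10.97 and 11.17 in WT and 11.28, 11.34, 11.43 and 11.71 in NS-DADm replicates 1 to 4. Every mutant array was above every WT array, but WT replicate 1 was far below the others. The difference was 0.57, or 1.49-fold (SE 0.148, 95% confidence interval 0.25 to 0.90, adjusted p = 0.207), and 0.42 without WT replicate 1. It missed the threshold whichever array was left out, with an adjusted p of 0.122 to 0.443.

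Ctss, a cathepsin of antigen-presenting cells, had the widest spread of all lysosome genes. It measured 8.90, 8.46, 8.46 and 9.26 in WT and 8.48, 8.82, 9.26 and 9.56 in NS-DADm, and the groups overlapped (difference 0.26, SE 0.235, adjusted p = 0.852). Its value was 0.08 without NS-DADm replicate 4. The macrophage receptor gene Csf1r measured 9.58, 9.34, 9.17 and 9.80 in WT and 8.89, 9.38, 9.78 and 10.20 in NS-DADm. Both genes were lowest of their group in NS-DADm replicate 1 and highest in NS-DADm replicate 4 and WT replicate 4. NS-DADm replicate 4 was the highest of its group in 12 of the 13 macrophage markers and replicate 1 the lowest in 12. The mean of 6 hepatic stellate cell markers also rose over NS-DADm replicates 1 to 4, at 8.65, 8.84, 8.99 and 9.39. The endothelial marker mean was 9.16 in NS-DADm replicate 1 and 9.75 in NS-DADm replicate 4, the lowest and highest of that group. The WT arrays differed in this respect. In WT replicates 1 to 4 the macrophage marker mean was 9.19, 8.88, 8.70 and 9.33. The endothelial mean was 9.59, 9.78, 9.70 and 9.67 in the same arrays, and the stellate mean 9.01, 9.18, 8.94 and 9.18. The part of macrophages or of other cells in the values of Ctss, Ctsc and the other cathepsins was not tested.

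Ctsd, the main aspartic protease of the lysosome, measured 11.93, 11.90, 11.95 and 11.92 in WT and 11.96, 11.99, 12.06 and 12.07 in NS-DADm. The groups were separate but close, with a difference of 0.09 (SE 0.0504, adjusted p = 0.619). The cysteine proteases Ctsb and Ctsl were both at 0.13 (adjusted p = 0.683 and 0.602). Ctsh, an aminopeptidase, was at -0.10, Ctsa, a carboxypeptidase that also shields sialidase and galactosidase, at -0.06, and Ctsz, a carboxypeptidase, at -0.01. NS-DADm replicate 4 was the highest of its group in 7 of the 8 cathepsins and replicate 1 the lowest in 6, and the mean of the 8 was 11.74 in that array, while NS-DADm replicates 1 to 3 had 11.41 to 11.58 and WT 11.32 to 11.59.

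Of the sugar and lipid hydrolases, Lipa, the acid lipase that frees cholesterol and fatty acids from lipoproteins, had the largest value. It measured 11.64, 11.97, 11.91 and 11.95 in WT and 12.03, 12.00, 12.11 and 12.16 in NS-DADm. The groups did not overlap, although WT replicate 2 came close to the nearest mutant array. The difference was 0.21 (SE 0.0788, adjusted p = 0.426), and 0.13 without WT replicate 1. Hexa, the alpha chain of beta-hexosaminidase, was at 0.13, or 0.03 without NS-DADm replicate 4, and Gaa, the acid glucosidase that degrades glycogen, at -0.03.

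Npc1 and Npc2 hand cholesterol out of the lysosome, and neither passed the test. Npc1 measured 11.94, 12.01, 12.00 and 12.07 in WT and 11.78, 11.79, 12.03 and 11.91 in NS-DADm, a difference of -0.13 (95% confidence interval -0.28 to 0.02, adjusted p = 0.608). Npc2 was at 0.10 (adjusted p = 0.834), with 9.43 in NS-DADm replicate 4 against 9.04 to 9.24 in the other arrays.

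**Figure D3:**
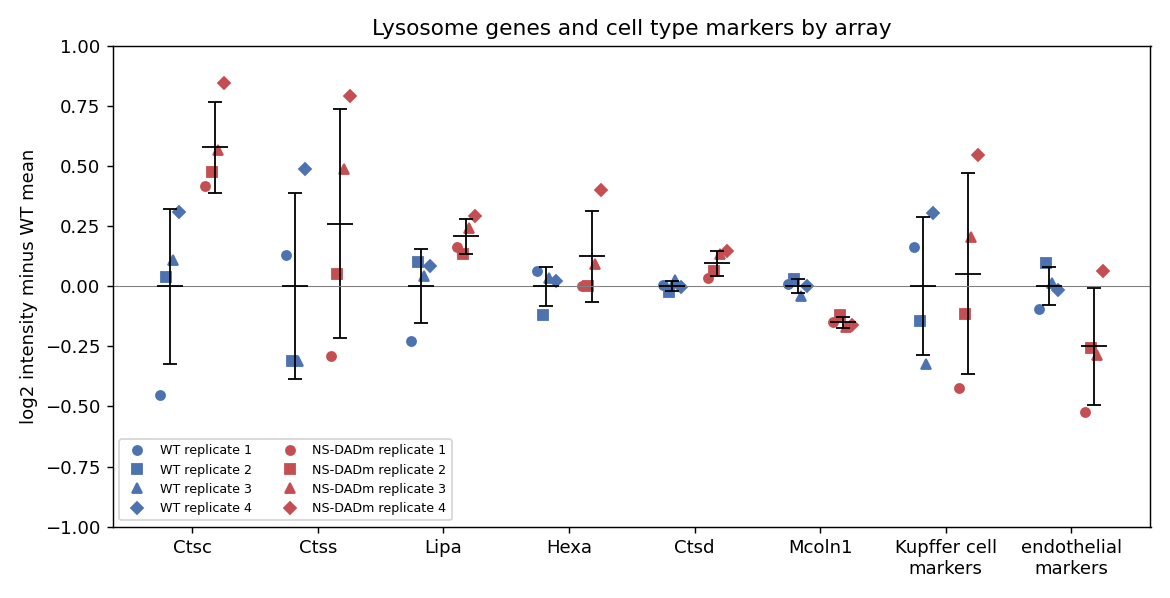
Log2 intensity relative to the WT mean of 6 lysosome genes and of the mean of 13 Kupffer cell and of 7 sinusoidal endothelial markers, in WT (blue) and NS-DADm (red) arrays; marker shape gives the replicate and black bars are mean ± SD. Ctsc, Lipa, Ctsd and Mcoln1 separate the groups, while Ctss and the Kupffer cell markers spread widely within each group.

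Beyond the members, 100 other genes of the pathway were listed by function, and 93 were measured. Of these 1 fell and none rose over all genes (0.110% of all genes were lower and 0.161% higher). Their values were above 0 in 35 and below in 58, with a median of -0.03. All genes had 8839 above, 11095 below and a median of -0.01. The groups did not overlap in 4 of the 93 (4.3%), Rogdi, Rnasek, Wipi1 and Naglu, beside 5.63% of all genes. In these 4 the NS-DADm arrays lay below WT, as they did in 3.83% of all genes. The gene that fell was Rogdi, which encodes a part of the rabconnectin-3 complex, the counterpart of the yeast factor that puts V1 and V0 together. Rogdi (Entrez Gene 66049) measured 9.17, 9.20, 9.35 and 9.09 in WT and 8.79, 8.86, 8.78 and 8.69 in NS-DADm. All mutant arrays lay below all WT arrays, by a gap wider than the range of the NS-DADm arrays but narrower than that of the WT arrays. The WT mean was 9.20 ± 0.11 and the NS-DADm mean 8.78 ± 0.07 (SD, n = 4 each), which differ by -0.42 on the log2 scale (SE 0.0663, 95% confidence interval -0.57 to -0.27, adjusted p = 0.0316 in limma).

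The size of that fall held between -0.46 and -0.37 whichever array was left out, but the call depended on the arrays. Rogdi missed the threshold without NS-DADm replicate 1 (adjusted p = 0.0849), 2 (0.0678) or 3 (0.103) and without WT replicate 1 (0.0733), 2 (0.138) or 3 (0.0786), and passed it without NS-DADm replicate 4 (0.046) or WT replicate 4 (0.0291). After quantile normalization its adjusted p was 0.0884.

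The other 3 genes of the rabconnectin-3 complex had values below 0 and did not pass the test. Dmxl2, one of its scaffold proteins, measured 10.02, 9.99, 9.81 and 10.05 in WT and 9.53, 9.68, 9.86 and 9.47 in NS-DADm, where replicate 3 alone reached the WT range (difference -0.33, SE 0.09, adjusted p = 0.226). Wdr7 was at -0.12 (adjusted p = 0.528) and Dmxl1, the second scaffold gene, at -0.08 (adjusted p = 0.859). The mean of the 4 genes was 9.72 to 9.82 in WT and 9.46 to 9.59 in NS-DADm, and Rogdi and Dmxl2 carried most of that difference. That mean was not planned and includes Rogdi, so it is not a separate result about the complex. The whole list of 8 pump assembly genes had 3 above and 5 below 0, with a median of -0.10. Rnasek, a small membrane protein that binds the pump, measured 10.03, 10.05, 10.05 and 9.99 in WT and 9.80, 9.90, 9.89 and 9.87 in NS-DADm, without overlap (difference -0.17, adjusted p = 0.29). The V0 assembly factors of the endoplasmic reticulum, Vma21, Tmem199 and Ccdc115, were at 0.07, 0.06 and 0.10.

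**Figure D4:**
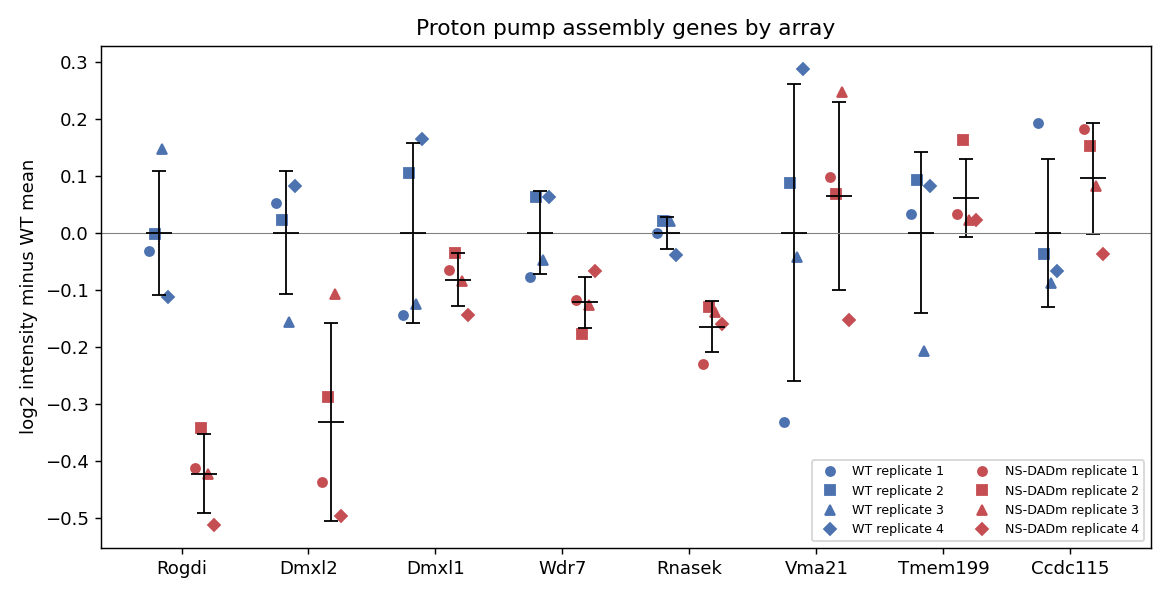
Log2 intensity relative to the WT mean of 8 genes for assembly of the proton pump, in WT (blue) and NS-DADm (red) arrays; marker shape gives the replicate and black bars are mean ± SD. Rogdi and Rnasek separate the groups, Dmxl2 does so except for NS-DADm replicate 3, and the other 5 genes overlap.

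The 5 pump isoforms of other tissues, Atp6v0a4, Atp6v1b1, Atp6v1e2, Atp6v1g2 and Atp6v1g3, lay between -0.03 and 0.09, and none passed the test. Of 30 other lysosomal hydrolases 10 were above and 20 below 0, with a median of -0.07. The largest values were those of Arsa, which degrades sulfatide, at 0.31 (adjusted p = 0.397), the iduronate sulfatase gene Ids at -0.24 (adjusted p = 0.383) and the sialidase gene Neu1 at -0.23 (adjusted p = 0.274). The mean of the 30 was 9.48 to 9.65 in WT and 9.40 to 9.60 in NS-DADm, with overlap.

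Of 16 other proteins of the lysosomal membrane 4 were above and 12 below 0, from -0.20 for the tetraspanin gene Cd63 to 0.05 for the ion channel gene Tpcn2. The 5 measured genes of mannose 6-phosphate sorting, which sends enzymes to the lysosome, lay between -0.09 (Sort1) and 0.14 (Gnptab). The 15 genes of nutrient sensing at the lysosome lay between -0.18 (Fnip1) and 0.13 (Mtor). Among 12 autophagy genes Wipi1, a phosphoinositide-binding protein of forming autophagosomes, was at -0.26 (adjusted p = 0.313) without overlap of the groups. The cargo receptor gene Sqstm1 was at 0.19 (adjusted p = 0.399). Mitf and Tfec, the relatives of Tfeb, were at -0.09 and -0.03.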

How the data were processed

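The values are log2 intensities as deposited by the authors, 28270 probe sets on 8 arrays. RMA and Partek made them, per the submitters' processing notes, with no version or setting stated there, and the log2 scale was read from the values (3.43 to 14.37). RMA compresses small differences at low intensity. Probe sets were named from the platform annotation, with symbols updated by Entrez identifier. Of the probe sets 21780 named 1 gene, 1617 several and 4873 none, which left 19934 genes (19852 matched by identifier, 996 with several probe sets). Dim genes were kept. The comparison used limma 3.58.1 under R 4.3.3 (lmFit and eBayes, two-sided, Benjamini-Hochberg over all genes, threshold 0.05), a step tested on simulated data. The number of arrays limits the precision. No batch or scan date was given in the sources used here.

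The members and lists were chosen with earlier results of these data known. Full values were given for Atp6v0d2 and Atp6v0d1, for members past the threshold or without overlap, and for the largest difference in each role group. Of each other list the genes past the threshold or up to 3 with the largest differences were named; further genes of those lists, Csf1r, and the full values of Ctss were added after their values were seen. Alternatives were the mean of a gene's probe sets, every probe set alone, filters on level at the median and 25th percentile, quantile normalization, median subtraction, trended and robust variances, array weights, a replicate block and each array left out. Figures were made with matplotlib 3.10.9 in Python 3.11.15.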

Additional observations from a re-analysis of the deposited data

Results flagged for a closer look

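In 3 of 84 groups of 4 arrays 1 array lay far from the other 3, where chance alone gives about 1 in 20. Atp6v1b2 was at 10.17 in WT replicate 4, against 9.88 to 9.93 in the other WT arrays. Ctsb was at 12.29 in WT replicate 4, against 12.04 to 12.06. Ctsz was at 12.32 in NS-DADm replicate 4, against 12.09 to 12.11.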

How the results depend on the processing

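Of the 37 measured members 25 kept their sign under each of the 16 alternatives in which they could be tested, and the 12 that did not lay within 0.07 of 0. No member other than Atp6v0d2 passed the threshold under any alternative except the replicate block, where 1 did (Ctsc, adjusted p = 0.0278, within a range of 0.0278 to 0.443 over its alternatives). Deviations from the group means correlated across genes at r = 0.146, 0.048, -0.102 and 0.247 between samples of replicate number 1, 2, 3 and 4, and not every NS-DADm array correlated best with the WT array of its number, so the numbers were not taken as a pairing. Of the endothelial markers Clec4g passed with the replicate block (adjusted p = 0.0421), and its difference of -0.36 was -0.15 with the mean of its probe sets. Over all genes the count past the threshold was 54, against 105 with the replicate block and 109 with array weights, and 13 to 126 with 1 array left out. Of the other pathway genes 1 passed (Rogdi, adjusted p = 0.0155 to 0.138 over its alternatives), 0 after quantile normalization and 0 to 1 with 1 array left out. The medians of the pump, lysosome and pathway lists moved by less than the spread between arrays. The files hold no detection calls, so how far a dim gene such as Atp6v0d2 in WT stood over background was not measured.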
